A study of Homo sapiens with 8 samples.

Results

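Messenger RNA precursors of very long genes are a small class with a large share of the transcribed genome. The regions described here are the N6-methyladenosine (m6A) peaks that overlapped, by 1 bp or more, the body of a protein-coding gene longer than 500 kb in the RefSeq annotation of GRCh38.p14. Of 53021 peaks in 2 lists, 4802 were members, namely 2672 of 29084 peaks in wild type (9.19%) and 2130 of 23937 in the METTL3 knockout (8.90%). Gene length alone chose them, with no value of any peak. The annotation held 315 such genes, which together spanned 262.654 Mb. A peak was found in 270 of them, in both lists for 204, in wild type alone for 32 and in the knockout alone for 34, and 45 held no peak.

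Chromosome-associated RNA had been taken from HEK293T, a line established from human embryonic kidney, and from METTL3 knockout cells of that line. The parental cells are called wild type. Each genotype had 2 m6A immunoprecipitates (IP) and 2 inputs, so that 8 samples formed 4 groups, and 1 peak list stood for each genotype. Both groups shared the line, the medium and the rRNA-depleted chromosome fraction, and the labels name no treatment. The sources used here do not say whether the knockout line was 1 clone, and a HAT1 knockdown named in the design text was not analysed here. METTL3 itself held 2 wild-type peaks and 0 knockout peaks. The lists hold no expression values, so markers of the cell line could not be checked, and they hold no values per replicate, so no difference below has a replicate check. The number of peaks in a gene depends on how much of its RNA was present as well as on its methylation, and fewer cells with the RNA cannot be told apart from less RNA per cell.

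m6A is written on nascent transcripts by a complex whose catalytic subunit is METTL3, mostly within the DRACH consensus, of which GGACT is the best known form. In mature mRNA it is concentrated in long internal exons and near stop codons. RNA still bound to chromatin is rich in unspliced precursors, and in genes of this size nearly all of the precursor is intron, which RNA polymerase needs hours to cross. Many such genes encode synaptic adhesion molecules, channels and scaffolds of neurons, and several lie at common fragile sites, where transcription and replication of very long genes meet.

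Start windows, running from 250 bases before to 30 bases after an annotated start, held few of these peaks. Of 616 such windows in 263 members with an entry in the RefSeq start table, 17 windows of 15 genes held a peak of their strand, 4 in both lists, 9 in wild type alone and 4 in the knockout alone. The table lists no start near the upstream bound of some members, so these counts cover listed starts only. The 3 shown first are windows with a peak of both lists, and capitals mark the bases that both peaks covered (RefSeq, GRCh38.p14). In the other such window, of ROBO2, both peaks covered only 1 base of the window and overlapped further beyond it. MACROD2, at chr20:13995266-13995545 on the plus strand, and MECOM, at chr3:169663683-169663962 on the minus strand, are the outermost starts of their genes. The RABGAP1L window, at chr1:174700289-174700568 on the plus strand, lies 541.019 kb inside its gene.
MACROD2: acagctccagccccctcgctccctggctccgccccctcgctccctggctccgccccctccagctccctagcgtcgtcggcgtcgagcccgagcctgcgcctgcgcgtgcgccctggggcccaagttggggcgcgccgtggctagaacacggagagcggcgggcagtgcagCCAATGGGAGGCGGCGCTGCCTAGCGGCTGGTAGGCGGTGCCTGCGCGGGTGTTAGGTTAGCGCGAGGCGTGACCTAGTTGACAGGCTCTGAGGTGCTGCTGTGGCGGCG
MECOM: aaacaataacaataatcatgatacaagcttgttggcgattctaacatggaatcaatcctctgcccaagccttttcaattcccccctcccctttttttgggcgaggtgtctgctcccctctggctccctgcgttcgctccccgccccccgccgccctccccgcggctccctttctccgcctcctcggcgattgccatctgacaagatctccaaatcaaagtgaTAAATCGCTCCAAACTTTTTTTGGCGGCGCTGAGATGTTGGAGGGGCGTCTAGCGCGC
RABGAP1L: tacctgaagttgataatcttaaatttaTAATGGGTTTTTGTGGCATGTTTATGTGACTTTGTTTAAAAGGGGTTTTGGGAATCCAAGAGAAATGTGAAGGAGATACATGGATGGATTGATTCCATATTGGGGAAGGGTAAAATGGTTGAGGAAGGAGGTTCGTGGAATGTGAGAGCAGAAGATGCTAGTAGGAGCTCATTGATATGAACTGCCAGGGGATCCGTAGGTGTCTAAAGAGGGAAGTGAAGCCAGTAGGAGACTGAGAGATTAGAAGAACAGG
The windows of NRXN3 (chr14:79279130-79279409, plus strand) and TENM3 (chr4:182143713-182143992, plus strand) are shown because all peaks on the gene's strand lay after these inner starts. Capitals there mark the 30 bases from the start site onward, and neither window held a peak.
NRXN3: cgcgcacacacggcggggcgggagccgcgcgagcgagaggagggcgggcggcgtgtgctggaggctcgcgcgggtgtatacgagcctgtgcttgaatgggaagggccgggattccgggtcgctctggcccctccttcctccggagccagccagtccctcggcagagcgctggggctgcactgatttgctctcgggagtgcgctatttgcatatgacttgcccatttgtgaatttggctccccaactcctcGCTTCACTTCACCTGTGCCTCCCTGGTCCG
TENM3: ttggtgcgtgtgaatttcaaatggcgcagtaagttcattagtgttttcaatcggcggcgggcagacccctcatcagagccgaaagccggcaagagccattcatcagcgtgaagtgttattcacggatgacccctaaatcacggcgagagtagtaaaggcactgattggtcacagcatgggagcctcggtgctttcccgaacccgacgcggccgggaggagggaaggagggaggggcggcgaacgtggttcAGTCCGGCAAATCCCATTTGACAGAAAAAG
GGACT and the shorter GGAC, which every GGACT contains, were searched on both strands. Of the 17 windows with a peak, 3 held GGACT on the strand of the gene and 10 held GGAC, beside 23.5% and 63.3% of all 35116 windows of the table. The 3 with GGACT were the window of ROBO2 with a peak of both lists and windows of DACH2 and ZBTB20 with a wild-type peak alone. The 5 windows printed, which were chosen for their peaks and positions, held neither on the strand, and the reverse complement AGTCC occurred once each in those of NRXN3 and TENM3. Among all windows 23.8% held AGTCC on the strand and 41.6% held either. These counts are a description, and an absence says only that the letters are not in that window.

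The peaks at these starts differed in strength. The fold is the ratio of IP to local input at a peak's summit, as the authors deposited it, and q is the deposited false discovery value, given here as −log10. At MACROD2, a gene of a mono-ADP-ribosylhydrolase, the wild-type peak had a fold of 7.86 and a −log10 q of 15.2 and the knockout peak 9.37 and 12.5. The MECOM peak, at the start of a zinc finger transcription factor gene, had a fold of 6.72 with a −log10 q of 71.6 in wild type, and 3.68 with 31.5 in the knockout. At the inner start of RABGAP1L, a Rab GTPase-activating protein gene, the folds were 8.09 and 14.96. The remaining window with a peak in both lists belonged to ROBO2, where the peaks reached 1 shared base of the window (folds of 4.19 and 14.2). Each list was scaled to its own libraries, so a fold in 1 list is not on the scale of the other.

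Long genes carried peaks at a lower density than shorter ones. Over the whole length of the members there were 1.02 wild-type peaks per 100 kb (exact Poisson 95% interval 0.980 to 1.06) and 0.812 knockout peaks (0.778 to 0.847). Coding genes of 100 to 500 kb held 1.76 and 1.44 per 100 kb, and those up to 100 kb 2.35 and 1.87. Within the members the wild-type density went from 1.22 at 500 to 750 kb to 1.01 at 750 to 1000 kb, 0.791 at 1000 to 1500 kb and 0.836 beyond 1500 kb. The knockout densities in the same classes were 0.944, 0.863, 0.712 and 0.503. These intervals, like all those below, cover counting error only.

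The 2 lists kept nearly the same proportion in long genes as elsewhere. There were 79.7 knockout peaks for every 100 in wild type (exact binomial 95% interval 75.3 to 84.4), against 81.5 in coding genes of 100 to 500 kb, 79.4 up to 100 kb and 82.3 over the whole lists. The 18 genes beyond 1500 kb had 60.1 (49.5 to 72.9), with 286 wild-type and 172 knockout peaks. In that class PTPRD had 17 and 0, DAB1 16 and 3, LRP1B 56 and 30, and ROBO2 41 and 25, while FHIT had 49 and 40 and NRXN3 19 and 17. By gene, 151 members held more wild-type peaks, 86 more knockout peaks and 33 equal numbers. Peak numbers of the 2 lists went together over the 315 genes (Spearman's rho 0.797, Pearson's r 0.823), a description over genes that share their libraries and differ in length.

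**Figure D1:**
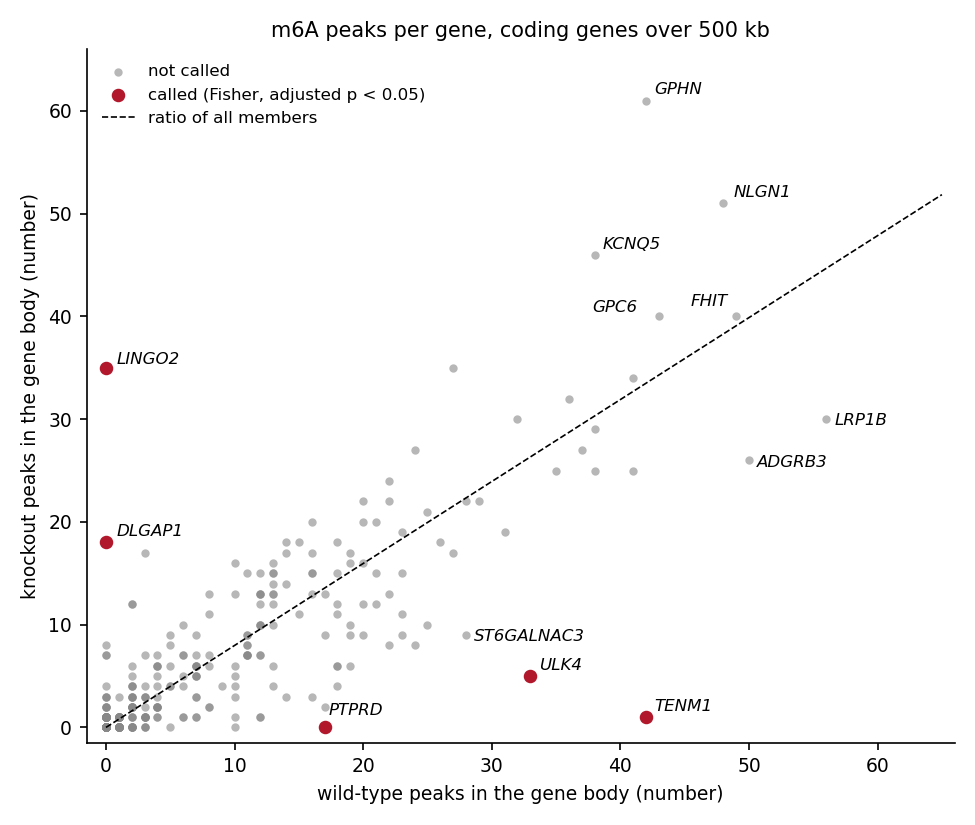
Number of wild-type (x axis) and knockout (y axis) peaks in each of the 315 coding genes over 500 kb, 1 point per gene; the dashed line has the slope of all members together (79.7 knockout peaks per 100 wild-type peaks) and red points were called by the Fisher test. FHIT (49 and 40) lies close to the line and NLGN1 (48 and 51) above it, TENM1 (42 and 1), ULK4 (33 and 5) and PTPRD (17 and 0) lie along the x axis and LINGO2 (0 and 35) and DLGAP1 (0 and 18) on the y axis.

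A few genes held much of the signal. The 12 genes with the most peaks carried 960 of them (19.97%), and 46 genes held 50% of all member peaks. GPHN had the most, with 42 wild-type and 61 knockout peaks. It encodes gephyrin, the scaffold of inhibitory synapses, and its RefSeq bounds overlap 13 other coding genes. NLGN1, which encodes a postsynaptic neuroligin, followed with 48 and 51, FHIT, a diadenosine hydrolase gene at a fragile site, with 49 and 40, and LRP1B, a lipoprotein receptor gene, with 56 and 30. KCNQ5, a voltage-gated potassium channel gene, held 38 and 46 and GPC6, a glypican gene, 43 and 40. The adhesion receptor gene ADGRB3 held 50 and 26, the ephrin receptor gene EPHA6 41 and 34, and PRKG1, which encodes a cGMP-dependent kinase, 36 and 32. LRRC37A2, a member of a family of near-identical copies whose reads are uncertain, held 38 and 29, the Slit receptor gene ROBO2 41 and 25, and GALNT13, a glycosyltransferase gene, 37 and 27.

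Ranked by density in place of number, ADGRB3 (chromosome 6, 68635282 to 69389506) had 6.63 wild-type and 3.45 knockout peaks per 100 kb. KCNQ5 (chromosome 6, 72622064 to 73198853) had 6.59 and 7.98, and NLGN1 (chromosome 3, 173395952 to 174294372) 5.34 and 5.68. FAF1, a gene of a Fas-binding protein, had 5.92 and 3.63, LRRC37A2 5.62 and 4.29 and TENM1 5.07 and 0.121. In the knockout GPHN (4.97), RABGAP1L (4.19) and ADK (3.94, an adenosine kinase gene) also ranked among the 6 densest. Over members with a peak the wild-type median was 0.989 and the knockout median 0.819. The genes named here were picked for their density in 1 list or both, and TENM1 lay below the knockout median.

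The longest genes with a peak were not rich in them. RBFOX1, a neuronal splicing regulator gene of 2474 kb, held 1 peak in each list, and CNTNAP2, a neurexin-family gene of 2304 kb, held 1 in wild type and 0 in the knockout. The dystrophin gene DMD (2220 kb) held 3 and 1, and DLG2 (2173 kb), which encodes the postsynaptic scaffold PSD-93, 7 and 3. Of the 5 longest, PTPRD (2299 kb), a receptor tyrosine phosphatase gene, stood highest in wild type with its 17. At the length threshold, AFF2 (500.047 kb) had 1 and 0 peaks, PPFIA2 2 and 6 and SPOCK3 12 and 7. Just below it DIAPH3 (498.346 kb) had 16 and 19, ITPR2 12 and 10 and CACNA2D1 13 and 10.

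By role, the counts below describe lists written with earlier results known. Among all members the median was 7 peaks per gene in both lists together and 15.4% of wild-type peaks were shared, that is, overlapped by a knockout peak on the same strand. In 22 adhesion and guidance receptors, which include the ROBO, EPHA and teneurin genes, 274 wild-type and 223 knockout peaks were found, with 19.7% of the former shared and a median of 8.5 peaks. The 17 cadherins, contactins and neurexins had a median of 1, as 12 held any peak, and NLGN1 gave 48 and 51 of their 119 and 93 peaks. Of 13 scaffold and glutamate receptor genes, 96 and 87 peaks were counted (14.6% shared, median 18), with GRIP1, a receptor-anchoring scaffold gene, at 24 and 8 and MAGI2 at 19 and 10. The 11 channel and transporter genes held 65 and 79, of which KCNQ5 made up 38 and 46. The cardiac ryanodine receptor gene RYR2 had 4 and 7 and CACNA2D3, a calcium channel subunit gene, 7 and 7.

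The remaining lists are given beside the 79.8 knockout peaks per 100 wild-type peaks over all members. The 27 genes listed as signalling enzymes, GTPase regulators and phosphodiesterases had 241 and 162 peaks (67.2 knockout peaks per 100), with 10.4% of wild-type peaks shared. Among them the phospholipase gene PLCB1 held 35 and 25 and PDE4D, a cAMP phosphodiesterase gene, 23 and 19. The 13 transcription and chromatin factor genes held 136 and 127 (93.4 per 100), led by FOXP2, a forkhead factor gene of speech development, with 27 and 17, PARD3B, a polarity gene that the list also holds, with 18 and 18 and MACROD2 with 22 and 13. The 14 fragile-site genes had 254 and 178 (70.1 per 100; 11.8% shared), of which FHIT, LRP1B and IMMP2L (29 and 22) held the most. The 15 genes of cytoskeleton and matrix held 85 and 68, with the ankyrin gene ANK2 at 28 and 22 and the utrophin gene UTRN at 20 and 20. The 11 genes of polarity and trafficking held 113 and 98, with NBEA at 21 and 20 and the exocyst genes EXOC6B at 23 and 15 and EXOC4 at 20 and 16. The list of RNA-binding protein genes had 6 members with 34 and 24, of which the exocyst gene EXOC4, held there too, gave 20 and 16. No p-value was computed for any of these lists.

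Peak number differed between the lists in 5 of 181 members tested. Fisher's exact test compared each gene's peaks in the 2 lists with the rest of each list, over all 2716 coding genes with 5 or more peaks, and it compares the lists, not the genotypes. It called 0.184% of the genes tested in either direction, 0.11% with more wild-type and 0.0736% with more knockout peaks, and all 5 were members. The test treats the peaks of a gene as independent, and a gene with few peaks can hardly pass it. Members were 119 of the 416 coding genes with 10 or more peaks in a list. Before adjustment 24 members and 97 coding genes in all had p under 0.05.
TENM1, a teneurin gene on chromosome X (124375903 to 125204312), held 42 wild-type peaks and 1 knockout peak (Fisher's exact test, Benjamini-Hochberg adjusted p = 3.42e-07, 1.27e-07 to 3.86e-05 over 3 alternatives). ULK4, a pseudokinase gene, held 33 and 5 (adjusted exact p = 0.0338, 0.0126 to 0.347) and PTPRD 17 and 0 (adjusted exact p = 0.0358, 0.0133 to 1).
In the other direction LINGO2, which encodes a leucine-rich repeat protein, held 0 and 35 (adjusted exact p = 2.19e-09, 8.14e-10 to 0.00927). DLGAP1, a postsynaptic scaffold gene, held 0 and 18 (adjusted exact p = 0.000548, 0.000204 to 0.347). The calls of ULK4, PTPRD and DLGAP1 ended when only peaks at or above the median −log10 q of each list were counted. Peaks on either strand of a gene were counted in this test, and those of ULK4 lay on both.

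An imbalance of 2 times or more was about as frequent in long genes as in all coding genes when wild type was higher. Of 119 members with 10 or more peaks in a list, 27 (22.7%) had at least 2 times as many in wild type as in the knockout, against 23.1% of all 416 coding genes with as many peaks. The opposite applied to 5 (4.202%), against 7.93%. The 5 were LINGO2, DLGAP1, B3GALT1 (3 and 17), DPYD (2 and 12), which encodes the first enzyme of pyrimidine breakdown, and NKAIN3 (2 and 12). Those higher in wild type included ST6GALNAC3 with 28 and 9, BCAS3 with 25 and 10, GRIP1 with 24 and 8, CDKAL1 with 23 and 9, SCAPER with 22 and 8 and KLF12 with 19 and 6. ANKS1B had 17 and 2, DAB1, a reelin adaptor gene, 16 and 3, CCDC171 14 and 3, SDK1 10 and 1 and MARCHF1 10 and 0. None of these other genes passed the adjusted test.

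Peaks lay more towards the upstream end of the long genes than of shorter ones. Each gene body was cut into 10 equal parts, called deciles here, counted from its upstream bound as read on the strand of the peak. The first 5 deciles contained 56.8% of the wild-type peaks (exact binomial 95% interval 54.9 to 58.7) and 55.0% of knockout peaks (52.9 to 57.1). In genes of 100 to 500 kb the shares were 49.1% and 48.3%, and up to 100 kb 50.7% and 49.9%. The first 3 deciles held 36.5% and 36.1%, against 29.6% and 29.5% at 100 to 500 kb, and 32.5% and 30.9% up to 100 kb.

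The first 3 deciles held the highest shares in both lists, and beyond them the share did not fall steadily. In wild type the first decile held 13.1%, the second 12.5%, the third 10.9%, the sixth 8.94%, the seventh 8.23%, the eighth 9.09% and the last 7.93%. In the knockout the first held 13.9%, the second 11.6%, the third 10.7%, the sixth 9.24%, the seventh 8.11%, the eighth 9.85% and the last 8.44%. Genes up to 100 kb had a first decile of similar share, 12.7% (12.1 to 13.4) in wild type and 12.1% (11.4 to 12.8) in the knockout. Their second decile held 10.4% and 9.35% and their last 11.4% and 12.2%. Members of 500 to 750 kb, the largest length class, had 11.6% and 11.5% in the first decile and 7.96% and 10.9% in the last. Their first 5 deciles held 53.9% (51.1 to 56.7) of wild-type and 51.1% (47.9 to 54.3) of knockout peaks. The knockout interval thus covers an even split. In the 18 genes beyond 1500 kb the first decile contained 19.6% of the wild-type and 20.9% of the knockout peaks. There the share dipped to 3.85% and 2.33% in the fifth decile and stood at 11.2% and 13.95% in the ninth. The lean was not the same in every gene. Of 144 members with 5 or more wild-type peaks, 90 had more than 50% of them in the first 5 deciles, 44 had less and 10 had exactly 50%. In the knockout 69 of 134 had more, 57 less and 8 exactly 50%.

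**Figure D2:**
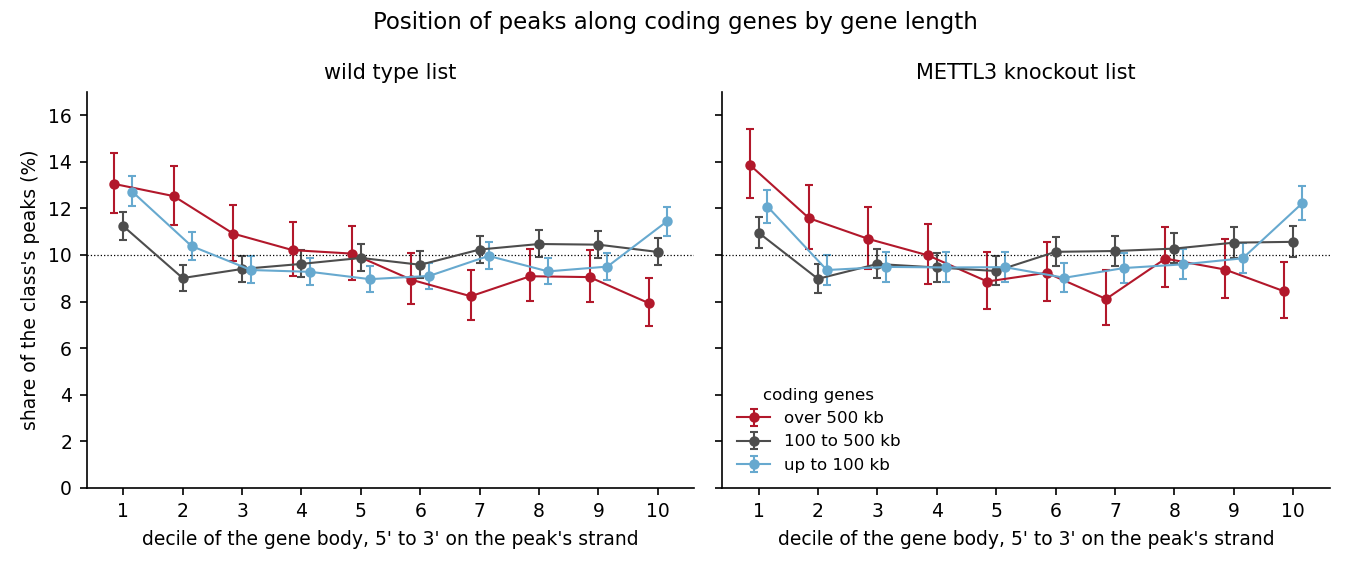
Share of peaks (y axis, %) in each decile of the gene body, counted 5′ to 3′ on the peak's strand (x axis), for 3 length classes of coding genes in the wild-type list (left) and the knockout list (right); bars are exact binomial 95% intervals for counting error and the dotted line is an even spread. In genes over 500 kb the first decile held 13.1% in wild type and 13.9% in the knockout and the last 7.93% and 8.44%, with a rise from the seventh to the eighth decile in both lists; genes up to 100 kb had 12.7% and 12.1% in the first.

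Single genes showed where within the body peaks began. Over members with 5 or more peaks on the annotated strand, the first such peak lay at a median of 3.65% of the gene in wild type (115 genes) and 4.98% in the knockout (109 genes). It lay beyond 30% in 10 wild-type and 9 knockout cases. An inner annotated start came before it, or for WDPCP in the knockout just after it, in 6 and 7 of these. NRXN3, which encodes the presynaptic adhesion molecule neurexin 3 in a long and a short form from separate promoters, had all 19 wild-type and 17 knockout peaks beyond 65% of its 1698 kb. The first wild-type peak (79282147 to 79282348, fold 9.85) lay 2.87 kb after the inner start shown above, which is 1109.01 kb into the gene, and the first knockout peak 60.7 kb after it. In TENM3, a teneurin gene chosen after its values were seen, the first peak of both lists on the gene's strand lay 6.18 kb after the inner start at 696.35 kb. It was a shared peak, at 182150037 to 182150248 in wild type (fold 4.58) and 182150039 to 182150238 in the knockout (fold 5.42). The upstream 696.35 kb of TENM3 held 1 knockout peak, on the other strand.

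Other genes filled their bodies differently. GALNT13 had 27.0% of its wild-type and 11.1% of its knockout peaks in the first 5 deciles, and an inner start lies at 409.608 kb of its 1388 kb. Its first peaks on the strand of the gene came before that start, at 339.967 kb in wild type and 199.734 kb in the knockout. PDE4D had 13.04% and 5.26% there, ADK 30% and 27.3%, and ROBO1, named for its strongest peak, 47.4% and 20%. At the other extreme EPHA6 had 90.2% and 61.8%, GPHN 76.2% and 78.7%, KCNQ5 73.7% and 69.6%, and ROBO2 68.3% and 84.0%. In FAF1 the lists parted, with 67.7% of wild-type and 26.3% of knockout peaks in the first 5 deciles (31 and 19 peaks). The first peak of PTPRD lay 1370 kb, or 59.6%, into the gene. In NLGN1 45.8% and 51.0% of the peaks lay in the first 5 deciles, and the first wild-type peak lay at 16.6% and the first knockout peak at 7.24% of the gene.

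**Figure D3:**
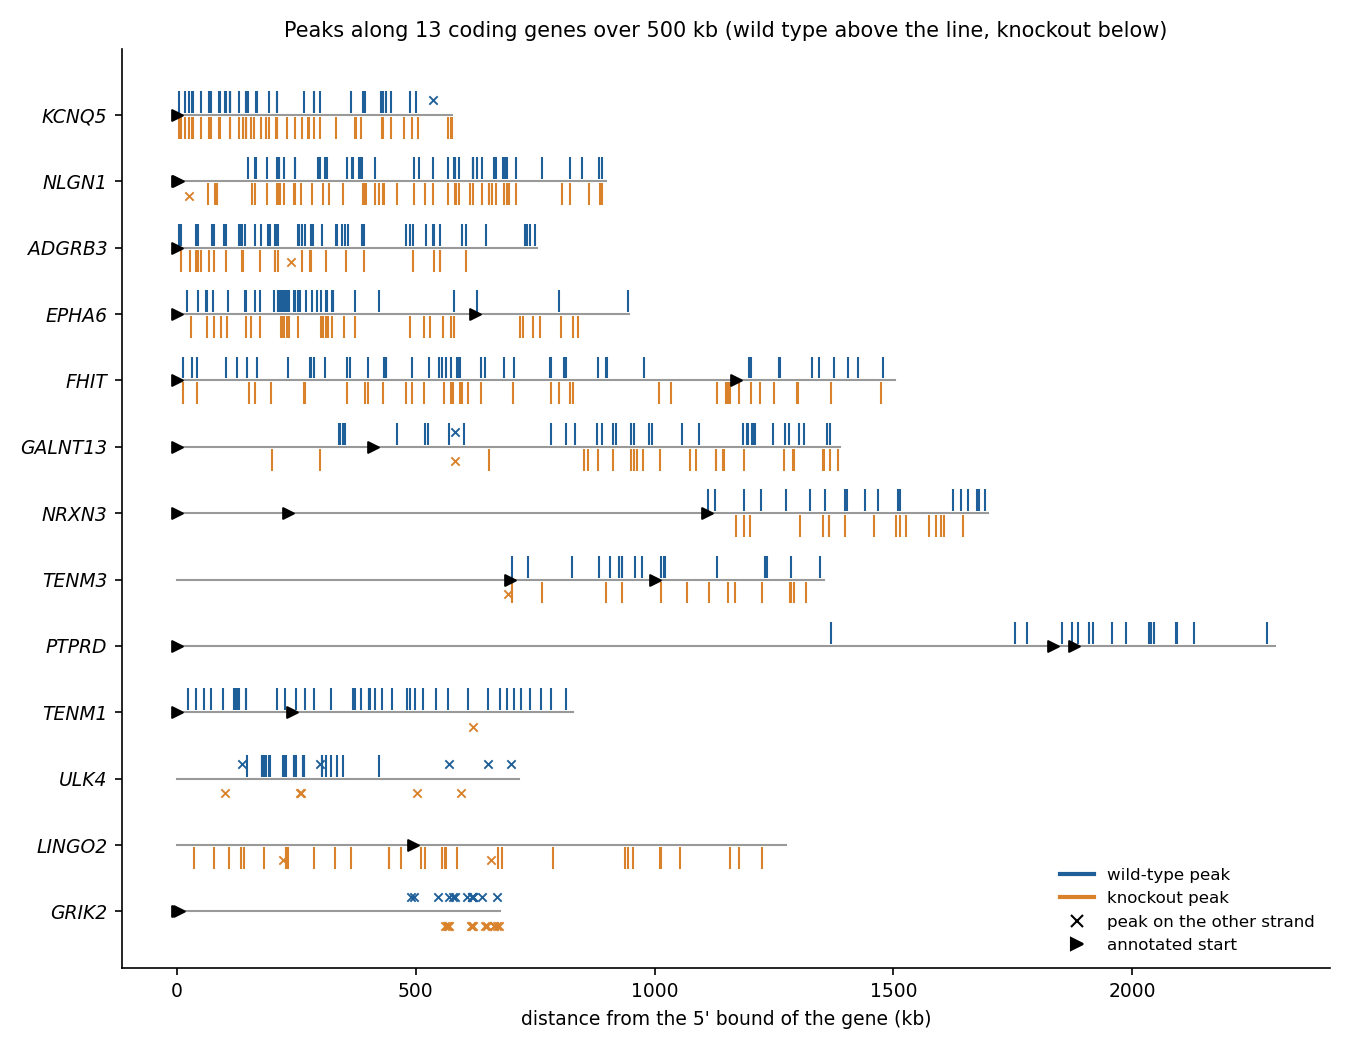
Position of each peak (distance from the 5′ bound of the gene in kb, x axis) in 13 genes, with wild-type peaks above and knockout peaks below each line; crosses are peaks on the strand opposite to the gene (for ULK4, whose strand the start table does not give, opposite to most peaks) and triangles are starts in the RefSeq table. NRXN3 and TENM3 are empty on their strand before an inner start at 1109.01 and 696.35 kb, LINGO2 has 35 peaks below its line and none above, and all 26 peaks of GRIK2 are crosses. The 5′ bound of ULK4 was likewise set by the strand of most of its peaks and may be its 3′ bound.

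Peaks near annotated starts were few. Of the peaks on the strand of the gene, 1.25% in wild type and 0.974% in the knockout lay within 1000 bp after an annotated start of the member. For some members the start table lists no start near the upstream bound, so peaks near other starts were not counted. The only start listed for RORA lies 81.2% into the gene and that for LINGO2 38.7%. The shares were 1.55% and 1.35% in genes of 100 to 500 kb and 6.92% and 5.61% up to 100 kb, whose 1000 bp are a larger part of the gene. Neighbouring peaks of a gene on 1 strand lay a median of 21.6 kb apart in wild type and 24.5 kb in the knockout, and 5.44% and 5.01% of these gaps were under 1 kb. Most peaks of these genes thus stood over 1 kb from the next.

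Nearly all peaks of a gene lay on 1 strand. In the 181 members with 5 or more peaks, 95.9% of 4630 peaks were on the strand that held most of the gene's peaks (exact binomial 95% interval 95.3 to 96.4), and the median gene had 100%. In 91 genes (50.3%) every peak was on 1 strand, and 150 had at least 90% there. FHIT had all 89 on the minus strand and GPC6 all 83 on the plus strand, while NLGN1 had 1 of 99 on the other. Where the start table gave the strand, 94.3% of wild-type peaks (2159 of 2290) and 93.5% of knockout peaks (1745 of 1866) lay on that of the gene. The shares were 94.3% and 93.6% at 100 to 500 kb, and 88.9% and 88.4% up to 100 kb.

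Purity was under 80% in 14 genes, 6 of which had 10 or more peaks. ANXA8 had 53.8%. Reads of this annexin gene are uncertain because of its near-identical copies, and its bounds overlap 4 other coding genes. MARCHF1, a ubiquitin ligase gene, had 60%, LRRC37A2, with bounds over 6 other coding genes, 67.2%, STXBP5L, a syntaxin-binding protein gene, 75% and STPG2 76.9%. In ULK4, at 73.7%, 28 of 33 wild-type peaks lay on the plus strand and 5 on the minus strand, whereas all 5 knockout peaks lay on the minus strand. ULK4 therefore differed between the lists in plus-strand peaks, 28 against 0, while minus-strand peaks numbered 5 and 5. The start table gives no strand for ULK4, so which of these peaks lay on the strand of the gene was not settled here.

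**Figure D4:**
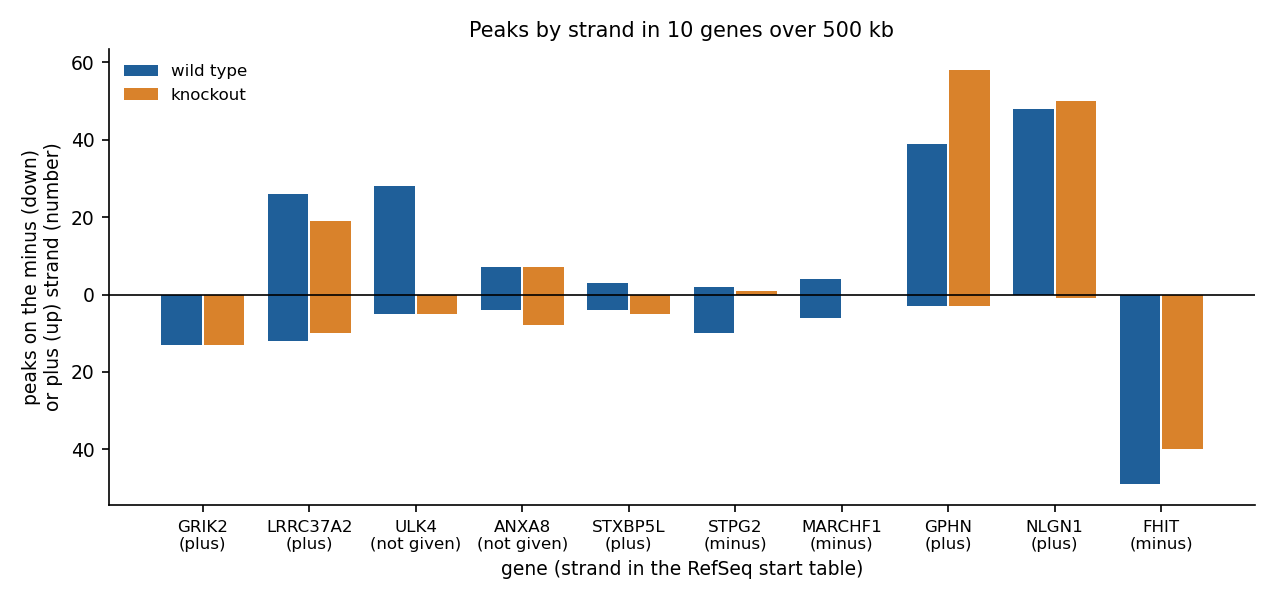
Number of wild-type (blue) and knockout (orange) peaks on the plus strand (upward) and the minus strand (downward) in 10 members, with the strand of the gene in the RefSeq start table in brackets. All 13 and 13 peaks of the plus-strand gene GRIK2 point down, ULK4 has 28 wild-type and 0 knockout peaks pointing up, and NLGN1 and FHIT are nearly or wholly on 1 strand.

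Peaks opposite to their gene numbered 131 in wild type (5.72%) and 121 in the knockout (6.48%). Of these 24 and 22 lay in another gene that the start table puts on their own strand. Genes without a strand in that table could not be counted. Of all opposite peaks 18.3% and 19.8% were shared between the lists, against 16.2% and 19.9% of peaks on the gene's strand. GRIK2, a kainate receptor subunit gene on the plus strand, had every one of its 13 wild-type and 13 knockout peaks on the minus strand. They lay between 101884161 and 102068308 on chromosome 6, in the downstream part of the gene, and 6 wild-type and 5 knockout peaks were shared. The strongest shared pair, at 102064237 to 102064650 in wild type and 102064272 to 102064647 in the knockout, had folds of 9.38 and 16.2. No gene that the start table puts on the minus strand ended within 2266 kb of the edge of GRIK2 on that side.

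Some other opposite peaks lay beyond the end of a neighbouring gene, which was looked up for a few genes only. The remaining opposite peaks were not checked for this, nor was how often a gene end lies so near. In STXBP5L all 9 (4 and 5) lay 28.5 to 88.2 kb beyond the 3′ bound of POLQ, a DNA polymerase gene on the minus strand. In EYS, a retinal gene named after its values were seen, 6 of 7 wild-type peaks and the 1 knockout peak lay within 100 kb beyond the 3′ bound of PHF3, a plus-strand gene. In MARCHF1 3 of 4 lay within 100 kb beyond TMA16. Elsewhere 22 opposite peaks were in LRRC37A2, 9 of them in the noncoding gene LOC101927060, and 8 in IL1RAPL2, where 4 wild-type peaks lay in LOC105373303. MACROD2 had 1 wild-type and 5 knockout peaks opposite to it, and 1 in each list lay in FLRT3, a gene nested within it.

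Sharing between the lists was lower in long genes than in shorter ones. A knockout peak on the same strand overlapped 411 of 2672 wild-type peaks (15.4%, exact binomial 95% interval 14.0 to 16.8), and 410 of 2130 knockout peaks were overlapped in turn (19.2%, 17.6 to 20.99). In genes of 100 to 500 kb the shares were 20.4% and 25.1%, and up to 100 kb 23.7% and 29.8%. The 412 overlapping pairs lay in 115 genes, with a median overlap of 202 bp and summits a median of 31.5 bp apart (quartiles 11 and 76.5). Of the 204 genes with peaks in both lists, 89 had no shared peak. An unshared wild-type peak lay a median of 23.0 kb from the nearest knockout peak on its strand in the gene, and an unshared knockout peak 18.4 kb from the nearest wild-type peak.

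Sharing went with the strength of a peak. In the 4 quartile classes of the whole wild-type list by −log10 q, from the lowest up, 8.63%, 9.47%, 12.5% and 33.4% of members were shared, and in the knockout 9.91%, 13.03%, 19.8% and 39.0%. The same classes at 100 to 500 kb gave 10.5%, 13.2%, 19.8% and 37.8% for wild-type peaks and 13.7%, 16.3%, 24.3% and 46.0% for knockout peaks, so the long genes were lower in each class. Shared members had a median −log10 q of 13.5 against 8.66 for unshared ones in wild type and 12.2 against 7.89 in the knockout. Their median folds were closer, at 7.89 against 7.44 and 7.53 against 7.06. Along the gene the first decile had the highest share, with 22.1% in wild type and 26.01% in the knockout, and the last decile had 12.3% and 14.4%. The median −log10 q was 10.2 in the first decile and 8.34 in the last for wild-type peaks, against 9.08 and 7.70 for knockout peaks, and its part in the difference was not tested.

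The share is bounded by the number of knockout peaks in a gene. Over the 68 members with 15 or more wild-type peaks, whatever their number in the knockout, the median was 14.1% (quartiles 8.70% and 23.7%) and the range 0% to 47.4%. KCNQ5 shared 18 of 38 wild-type peaks (47.4%, 31.0 to 64.2), NLGN1 21 of 48 (43.75%, 29.5 to 58.8) and ADK 7 of 20 (35.0%). EPHA6 and GPHN shared 14 each, of 41 and 42. At the other end 7 genes shared none. PTPRD, TENM1, ANKS1B, DAB1, RALYL and ULK4 held 5 or fewer knockout peaks, so few or none could be shared, and CEP112 held 21 wild-type and 12 knockout peaks. Over the 41 members with 15 or more peaks in each list, a selection added after the values were seen, the median was 21.7% and the range 5.56% to 47.4%. PARD3B shared 1 of 18 although the knockout list also held 18 peaks in it. MACROD2, outside that set for its fewer knockout peaks, shared 1 of 22. Only 8 of its knockout peaks lay on the strand of the gene and 5 lay opposite.

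**Figure D5:**
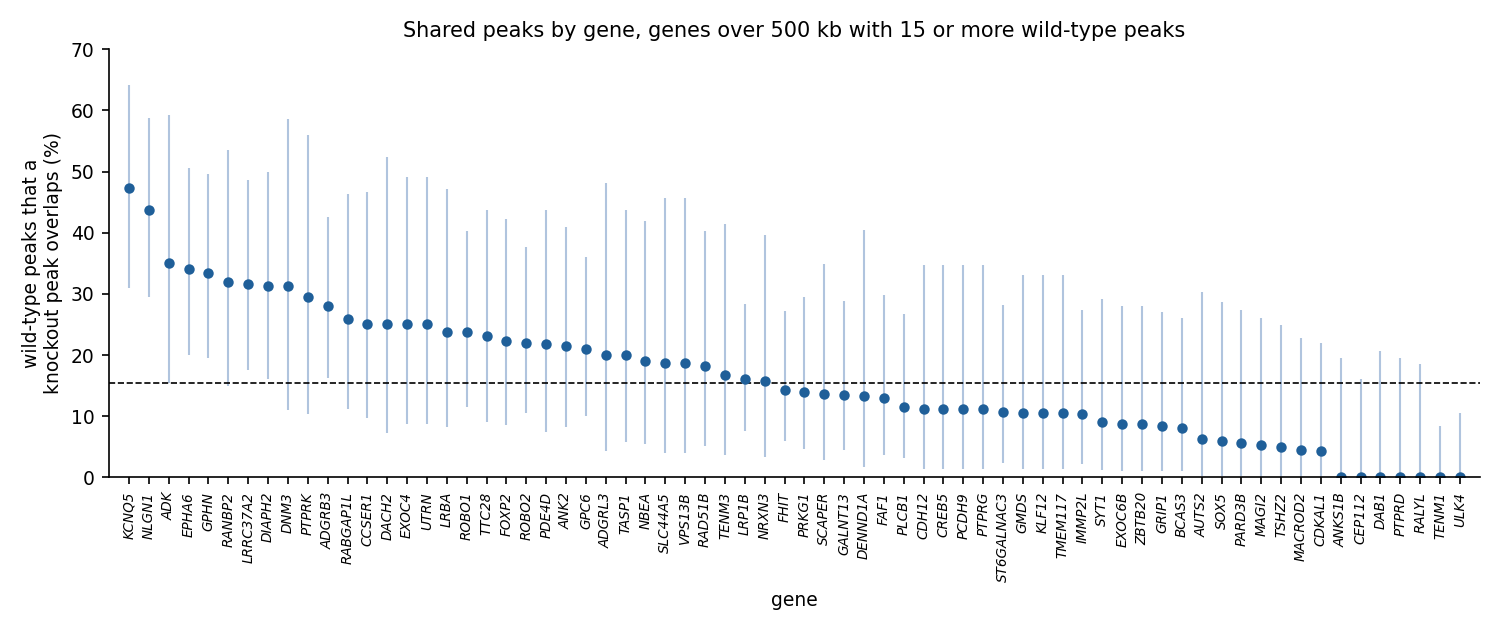
Share of a gene's wild-type peaks that a knockout peak overlapped by 1 bp or more on the same strand (y axis, %), for the 68 members with 15 or more wild-type peaks, in descending order; bars are exact binomial 95% intervals for counting error and the dashed line is the share over all members, 15.4%. KCNQ5 (47.4%) and NLGN1 (43.75%) lie highest and 7 genes lie at 0%, of which 6 held 5 or fewer knockout peaks.

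The strongest peaks of the members, named after their values were seen, were mostly shared. In wild type the highest −log10 q was 125.5, at ROBO1, a Slit receptor gene on the minus strand, on chromosome 3 from 78922535 to 78922804. Its fold was 13.8, and the knockout peak at 78922526 to 78922803 had 5.49. The next was in PARD3, a cell polarity gene, on chromosome 10 from 34317166 to 34317516, with folds of 35.4 and 28.3. In ADGRB3 the shared peak at 68680107 to 68680386 had folds of 6.40 in wild type and 28.6 in the knockout, where its −log10 q of 106.9 was the highest. The peak of ERC2, an active-zone scaffold gene, at 56434406 to 56434973 had a fold of 15.3 and no knockout partner. In the knockout list the next strongest lay in FHIT (60759964 to 60760267, fold 22.5), EPHA6 (97039029 to 97039287, fold 17.1) and KCNQ5 (72673374 to 72673618, fold 12.2), all shared.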

How the data were processed

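Per the submitters' processing notes, HISAT2 2.2.1, SAMtools 1.15.1 and MACS2 2.2.7.1 were used on build hg38; their settings and whether replicates were pooled are not given in the sources used here. The authors deposited 1 peak list per genotype, with a fold over input (a ratio), −log10 of the q-value, and a display score, which was not used. No wild-type peak had a −log10 q under 2.01 and no knockout peak one under 2.02. Reads per library are not given, so depth is unknown.

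Peaks were assigned to coding gene bodies of the RefSeq table (GRCh38.p14) without regard to strand. Strand came from the RefSeq start table, for 263 of 315 genes. Python 3.11.15, pandas 2.3.3, SciPy 1.17.1 and matplotlib 3.10.9 were used. Scripts were tested on simulated data. Genes named were the 12 with most peaks, the 6 densest per list, the 5 longest, those of purity under 80% or called, those with a 2-fold imbalance (some given as a count), the 3 highest and 3 lowest in sharing, the 3 on each side of 500 kb and up to 3 per role. Alternatives changed the length, overlap and q thresholds and list sizes. Members and lists were chosen with earlier results of these data known. Labels alone call the samples replicates, and p-values describe peaks of 2 lists.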

Additional observations from a re-analysis of the deposited data

How the results depend on the processing

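Of 106 values recomputed under alternatives, 64 stayed within counting error or on the same side of the threshold, 39 moved, 3 lost their call and 0 reversed. With genes over 300 kb, density was 1.17 wild-type and 0.962 knockout peaks per 100 kb, sharing 17.4% and 21.2%, the wild-type share in the first 5 deciles 53.6% and purity 96.8%. With genes over 1000 kb, densities were 0.807 and 0.637, the first decile 17.5% in both lists, the knockout share in the first 5 deciles 59.0% and purity 96.9%. With peaks at or above the median −log10 q of each list, densities were 0.487 and 0.373, the first decile 15.2% and 15.5%, the first 5 deciles 59.7% and 60.2%, knockout sharing 21.6% and purity 97.3%. There 2 members were called, LINGO2 and TENM1, while adjusted exact p-values were 0.347 for ULK4, 1 for PTPRD and 0.347 for DLGAP1; fewer peaks were counted. With equal numbers of strongest peaks, wild-type density was 0.824, knockout sharing 16.9% and the ratio 98.5 knockout peaks per 100, as the wild-type list is cut by construction. Sharing was 13.2% and 16.6% with reciprocal overlap of 50%, and 12.6% and 15.8% with summits within 100 bp. By quartile class of −log10 q, sharing in wild type was 8.63%, 9.47%, 12.5% and 33.4%, and 3 of the 4 knockout classes had 9.91%, 13.03% and 39.0%. Purity was 96.6% for peaks in exactly 1 coding gene and 97.1% for those in no other gene. Without the 4 genes over 4 or more other coding genes, an alternative chosen after seeing the data, purity was 96.65% and knockout density 0.775. The cause of the other moves was not tested. Leaving out a replicate could not be done. No paired analysis was possible because the lists hold no values per replicate. Depth per library is unknown, so a missing peak may lie below the detection limit of its list.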
